A study of Mus musculus with 18 samples.

Results

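The genes described here encode 9 enzymes with which the liver takes amino acids apart: the aspartate aminotransferases *Got1* and *Got2*, the alanine aminotransferases *Gpt* and *Gpt2*, tyrosine aminotransferase (*Tat*), serine dehydratase (*Sds*), histidine ammonia lyase (*Hal*), tryptophan 2,3-dioxygenase (*Tdo2*) and 4-hydroxyphenylpyruvate dioxygenase (*Hpd*). They were chosen by name for this shared function and are 9 of the 23352 gene symbols in the tables. All 9 had 1 entry in each table, were marked as successfully estimated in every liver and passed the filter on low values.

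Liver RNA of 18 male mice (labelled C57BL6) fed a high-fat diet (HFD) and aged 20 weeks was compared, with 9 wild-type (WT) and 9 *Gpr180*KO animals and 1 library for each animal. The KO mice are homozygous for a whole-body CRISPR/Cas9 deletion of 1 exon of *Gpr180*, made in C57BL/6J eggs, which leaves a truncated mRNA, and they and their wild-type controls descend from heterozygous founders. Because the deletion is present in every tissue, these livers do not separate an effect in hepatocytes from one in another organ. The time of day at which the livers were taken is not given in the sources used here. Expression is given as FPKM, the fragments per kilobase of transcript scaled to the mapped reads of the library, which is comparable between genes as a level per length.

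Aminotransferases move the amino group of an amino acid to a keto acid, most often to make glutamate, and the carbon skeleton that remains can be burned or turned into glucose. Aspartate and alanine aminotransferase each exist as a cytosolic enzyme (*Got1*, *Gpt*) and a mitochondrial one (*Got2*, *Gpt2*), and their activities in plasma, AST and ALT, are the common clinical signs of liver injury. *Tat* and *Hpd* catalyse successive steps of tyrosine breakdown, *Tdo2* opens the ring of tryptophan at the entry of the kynurenine pathway, *Hal* removes ammonia from histidine, and *Sds* turns serine into pyruvate. Glucocorticoids, glucagon and a protein-rich diet are known to raise several of these genes, with *Tat*, *Tdo2* and *Sds* as the classical examples.

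Promoter sequence is shown for the members that passed the test between the genotypes and have an entry in the RefSeq table used, *Hal* and *Hpd*, which were higher in *Gpr180*KO, and *Gpt2*, which was lower. Each line gives the 250 bases before the annotated start site, 5′ to 3′ on the strand of the gene, in GRCm38.p6. Capitals mark matches to the motifs searched on both strands, and 7 of the 9 members had an entry.
Hal (chr10:93488518-93488767, plus strand): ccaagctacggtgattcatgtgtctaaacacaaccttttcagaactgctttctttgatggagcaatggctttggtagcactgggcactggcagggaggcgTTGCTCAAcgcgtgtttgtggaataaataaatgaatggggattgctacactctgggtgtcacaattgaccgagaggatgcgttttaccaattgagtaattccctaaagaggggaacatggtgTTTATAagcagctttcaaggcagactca
Hpd (chr5:123182724-123182973, minus strand): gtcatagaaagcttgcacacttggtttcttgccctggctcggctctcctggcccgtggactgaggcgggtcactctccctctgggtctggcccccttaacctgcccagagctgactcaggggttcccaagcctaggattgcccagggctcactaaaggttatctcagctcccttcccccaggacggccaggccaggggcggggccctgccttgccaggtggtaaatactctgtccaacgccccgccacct
Gpt2 (chr8:85492326-85492575, plus strand): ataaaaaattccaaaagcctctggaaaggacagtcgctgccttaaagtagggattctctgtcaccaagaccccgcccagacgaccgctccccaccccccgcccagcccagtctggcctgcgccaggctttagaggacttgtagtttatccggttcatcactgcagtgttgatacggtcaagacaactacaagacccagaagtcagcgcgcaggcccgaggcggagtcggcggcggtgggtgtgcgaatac
The motifs were the TATA box TATAAA, the cAMP response element TGACGTCA and its shorter core TGACG (which lies within it), the glucocorticoid receptor motif AGAACA, the C/EBP motif TTGCNNAA and the HNF4 motif CAAAGTCCA. *Hal* held a C/EBP match beginning 150 bases before the start site and, on the opposite strand, a TATA box match beginning 28 bases before it. The *Hpd* and *Gpt2* windows held no match to any of the 6 motifs. Among 32851 promoter windows of this length, 12.4% held TATAAA, 9.56% TTGCNNAA, 17.8% TGACG, 16.1% AGAACA, 1.55% TGACGTCA and 0.384% CAAAGTCCA. Of the other members, *Tdo2* held a TATA box match beginning 229 bases before its start, *Got2* one on the opposite strand beginning 142 bases before it, and *Got1* and *Tat* held none.

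The label was checked first with *Gpr180*, which measured 6.79 ± 1.99 FPKM (SD, n = 9) in WT and 1.602 ± 0.37 FPKM (n = 9) in *Gpr180*KO livers, with no overlap. The relative depth of the libraries was 60.7 to 100% of the deepest one in WT and 44.4 to 93.3% in *Gpr180*KO. FPKM summed to between 554796 and 718746 per library, with the highest sum in the KO liver KOhfd51. Sample titles come in a pair of styles, called here style A (4 livers per genotype, such as W317HFD) and style B (5 per genotype, such as WThfd131). Whether the styles are batches is not stated, and the log2 fold change of each of the 9 enzyme genes is therefore also given within them. Of 10835 genes tested on the log2(FPKM + 0.1) scale, limma called 464 lower and 49 higher in *Gpr180*KO at a Benjamini-Hochberg adjusted p under 0.05, and the median log2 fold change of all genes tested was -0.13. Median-of-ratios scaling between libraries moved that median to 0.02 and the split to 145 lower and 146 higher, and 75th percentile scaling gave 170 lower and 109 higher.

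Markers of other cells moved with the genotype. Of 8 stellate cell and fibroblast markers, 4 were lower in *Gpr180*KO (*Col1a1*, *Col1a2*, *Col3a1* and *Dcn*), and the summed level of the list was 141 to 285 FPKM in WT and 79.8 to 144 FPKM in KO livers. The cholangiocyte list summed to 40.8 to 226 FPKM in WT and 17.4 to 51.0 FPKM in KO livers, nearly all of it from *Spp1*. Both of its markers that were tested, *Spp1* and *Sox9*, were lower, while *Krt19*, *Krt7* and *Epcam* averaged under 1 FPKM and were not tested. With median-of-ratios scaling *Spp1* was still called (limma adjusted p = 0.0161) and *Sox9* was not (limma adjusted p = 0.138). Macrophage markers had 1 of 5 tested lower (*Cd68*), and 0 passed of 6 endothelial, 2 neutrophil, 2 erythroid and 1 adipocyte markers tested. The 6 hepatocyte markers were present at high levels, with a sum of 15480 to 18737 FPKM in WT and 17308 to 31858 FPKM in KO livers, and 1 of them (*Serpina1c*) was higher in KO. Lymphocyte markers summed to at most 5.25 FPKM in any liver, and the adipocyte marker *Plin1* was at 0 in all of them. In bulk RNA, fewer cells of a type and less RNA per cell cannot be told apart, and the part of cell composition in the results below was not tested.

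Among the 9 enzyme genes, *Sds*, *Hal* and *Hpd* were higher and *Gpt2* was lower in *Gpr180*KO livers. Those 3 higher calls stand beside a background of 0.452% of all genes tested called higher, and the 1 lower call beside 4.28% called lower (4.73% in either direction). The estimate of 8 of the 9 lay above 0, against 23.1% of all genes tested, and the median of the 9 log2 fold changes was 0.54, against -0.13 for all genes. With TPM scaling the estimate for *Got2* fell below 0. All 9 were among the strongly expressed genes of the liver, at the 92.3 to 99.5 percentile of mean level. By level per length *Hpd* came first with a mean of 1315 FPKM over the 18 livers, followed by *Tdo2* (965 FPKM), *Tat* (520 FPKM) and *Got2* (292 FPKM). *Gpt2*, *Gpt* and *Got1* followed at 148, 116 and 108 FPKM, and *Sds* and *Hal* were lowest and close to each other at 93.0 and 92.7 FPKM. Over all 18 livers no member had groups without any overlap, a property of 0.231% of all genes tested. Within title style A the genotypes did not overlap for *Got1*, *Sds*, *Hal* and *Hpd*, and within style B for *Gpt2*. Fewer livers are compared within a style, where separation is easier to reach. The share of all genes without overlap there was not computed.

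**Figure D1:**
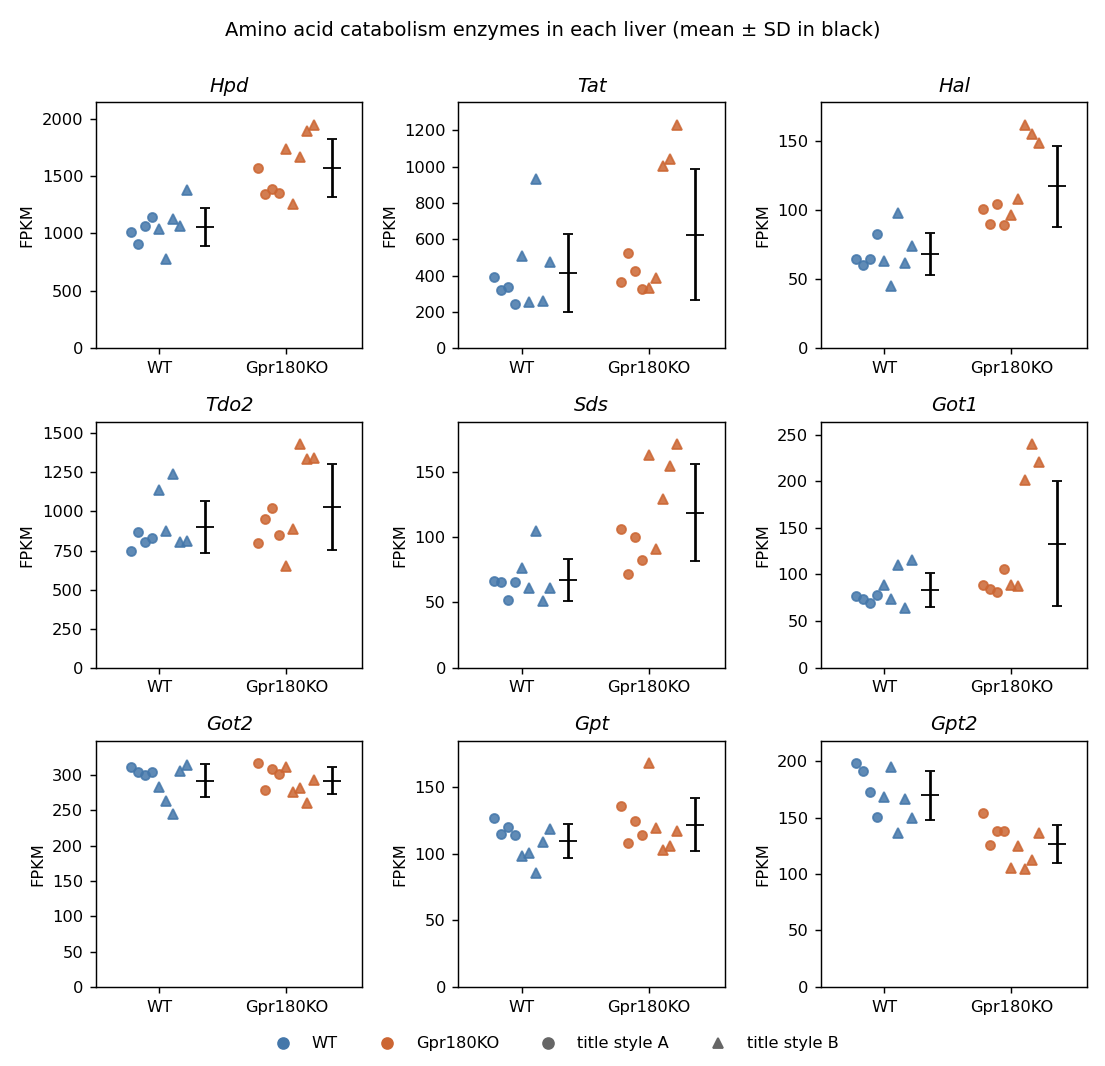
FPKM of the 9 enzyme genes in each liver, in 1 panel per gene with the vertical axis from 0. Blue marks are WT and orange marks *Gpr180*KO livers, circles are title style A and triangles style B, and the black bar is the mean ± SD of 9 livers. For *Hal* and *Hpd*, 6 of 9 KO livers lie above the highest WT liver, for *Gpt2* 6 of 9 lie below the lowest, and for *Tat* and *Got1* 3 KO livers stand far above the other 6.

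The genes called higher catalyse the breakdown of histidine, tyrosine and serine. *Hal* (chr10:93488768-93516743, GRCm38, plus strand) measured 44.9 to 98.1 FPKM in WT livers with a median of 64.3. In *Gpr180*KO livers it measured 89.0 to 162 FPKM with a median of 104. A single WT liver, WThfd134, reached into the KO range, and all 9 KO livers lay above the WT mean. The means were 68.2 ± 15.2 and 117 ± 29.4 FPKM, a 1.71-fold difference, and the log2 fold change was 0.77 (SE 0.15, 95% interval 0.47 to 1.08, limma adjusted p = 0.0132). Within title style A it was 0.51 (exact permutation p = 0.0286, the smallest that 4 against 4 allows), and within style B 0.99 (exact permutation p = 0.0159).

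*Hpd* (chr5:123171807-123182686, minus strand), the most abundant member, measured 779 to 1381 FPKM in WT livers with a median of 1062. The *Gpr180*KO livers measured 1259 to 1947 FPKM with a median of 1566. The highest WT liver, WThfd157, was the only one above the lowest KO liver, KOhfd52. The log2 fold change was 0.57 (SE 0.11, 95% interval 0.34 to 0.80, limma adjusted p = 0.0132), a 1.48-fold difference. Title style A gave 0.45 with no overlap between genotypes (exact permutation p = 0.0286), and style B gave 0.66 with overlap (exact permutation p = 0.0159).

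*Sds* (chr5:120476547-120483905, plus strand) had the largest estimate of the 9. Its level was 51.4 to 105 FPKM in WT livers with a median of 65.5. In the KO livers it was 72.0 to 171 FPKM with a median of 106. The WT livers WThfd134 and WThfd131 overlapped the KO range, while all 9 KO livers exceeded the WT mean. Its log2 fold change was 0.79 (SE 0.17, 95% interval 0.43 to 1.15, limma adjusted p = 0.0169), a 1.73-fold difference, with 0.52 in title style A (exact permutation p = 0.0286) and 1.01 in style B (exact permutation p = 0.0159). In the GENCODE annotation, 21.3% of the exonic bases of *Sds* lie over exons of *Plbd2* on the opposite strand and 8.32% over those of *Gm15690*. No source says that reads were counted by strand, so reads from these stretches cannot be told apart. *Plbd2* itself was at 16.9 ± 1.54 FPKM in WT and 13.9 ± 1.84 FPKM in KO livers, with a log2 fold change of -0.29 (limma adjusted p = 0.0554).

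**Figure D2:**
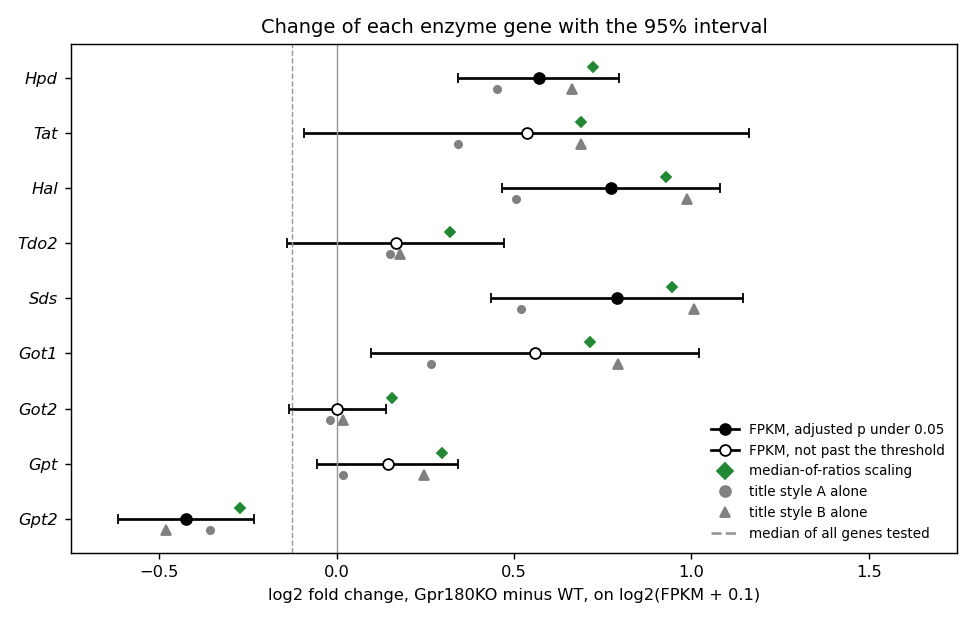
Log2 fold change of each enzyme gene, *Gpr180*KO minus WT, on the log2(FPKM + 0.1) scale, with its 95% interval from limma. Filled circles passed an adjusted p of 0.05, green diamonds are median-of-ratios scaling, grey marks are each title style alone, and the dashed line is the median of all genes at -0.13. *Sds*, *Hal* and *Hpd* lie to the right of 0 and *Gpt2* to the left with intervals that leave 0 out. The interval of *Got1* (0.10 to 1.02) leaves 0 out as well, although its adjusted p did not pass. Median-of-ratios scaling shifts every gene to the right.

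The mitochondrial alanine aminotransferase *Gpt2* (chr8:85492617-85527558, plus strand) was the member that fell. Levels ran from 137 to 198 FPKM in WT livers, with a median of 169, and from 105 to 154 FPKM in KO livers, with a median of 125. Of the KO livers 6 lay below the lowest WT liver and all 9 below the WT mean. The log2 fold change was -0.43 (SE 0.09, 95% interval -0.62 to -0.23, limma adjusted p = 0.0169), so that the KO level was 0.745 times the WT level. In title style B the genotypes did not overlap (-0.48, exact permutation p = 0.00794, the smallest that 5 against 5 allows), and in style A they did (-0.36, exact permutation p = 0.0571). Under median-of-ratios scaling the estimate shrank to -0.27 and missed the threshold (limma adjusted p = 0.0557).

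The cytosolic enzyme *Gpt* (chr15:76696764-76699675, plus strand) did not pass the test. It measured 85.4 to 126 FPKM in WT livers with a median of 114 and 103 to 168 FPKM in KO livers with a median of 117. The difference was 0.14 on the log2 scale (SE 0.10, 95% interval -0.05 to 0.34, limma adjusted p = 0.377), and the highest value, 168 FPKM, belonged to KOhfd51. Within title style A the difference was 0.02 (exact permutation p = 0.857), and within style B 0.24 (exact permutation p = 0.111).

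Read as a ratio within each library, which no scaling between libraries can change, *Gpt* to *Gpt2* separated the genotypes completely. The ratio was 0.515 to 0.793 in WT livers with a median of 0.639. It was 0.828 to 1.596 in KO livers with a median of 0.905. All 9 KO livers lay above the highest WT liver, and in 8 of the 9 *Gpt2* was still the more abundant of the pair. The means were 0.651 ± 0.086 and 0.979 ± 0.237, 0.57 apart on the log2 scale (two-sided exact permutation p = 4.11e-05, the smallest that 9 against 9 livers allow, and 8.23e-05 adjusted over 2 ratios). Title style A gave 0.37 (exact permutation p = 0.0286) and style B 0.73 (exact permutation p = 0.00794). The ratio is not independent of the results above, since it combines the fall of *Gpt2* (-0.43) with the estimate for *Gpt* (0.14), which did not pass. How many other gene ratios separate the genotypes was not computed.

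**Figure D3:**
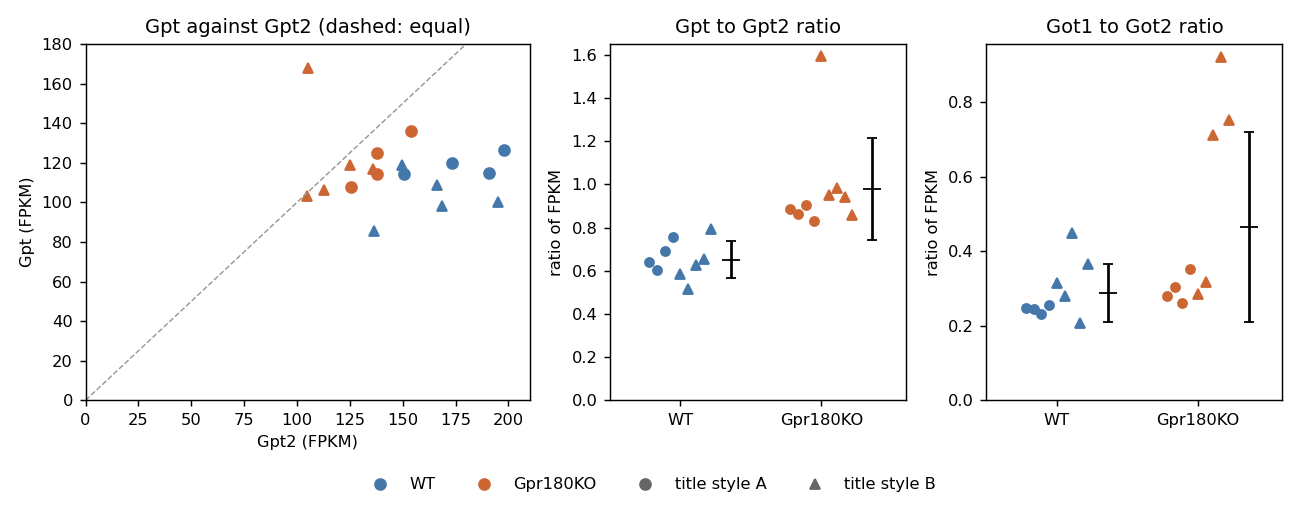
Left, *Gpt* against *Gpt2* in FPKM for each of the 18 livers, with the dashed line at equal levels. Middle and right, the ratio of cytosolic to mitochondrial enzyme gene in each liver for *Gpt* to *Gpt2* and for *Got1* to *Got2*, with the mean ± SD of 9 livers in black. The *Gpt* to *Gpt2* ratio of every KO liver (0.828 and above) exceeds that of every WT liver (0.793 and below), while the *Got1* to *Got2* ratios overlap except for 3 KO livers.

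For the aspartate aminotransferases, *Got2* (chr8:95864137-95888365, minus strand) was the steadiest member. It measured 245 to 314 FPKM in WT livers (median 304) and 260 to 316 FPKM in KO livers (median 293), a highest value over the lowest of 1.29. The log2 fold change was 0.00 (SE 0.07, 95% interval -0.13 to 0.14, limma adjusted p = 0.991). It was -0.02 in title style A (exact permutation p = 0.8) and 0.02 in style B (exact permutation p = 0.849). The exons of *Got2* share 434 bases with *Gm45760* on the opposite strand.

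*Got1* (chr19:43499753-43524605, minus strand) measured 63.4 to 115 FPKM in WT livers with a median of 77.0, and 80.7 to 240 FPKM in KO livers with a median of 88.6. The KO livers KOhfd53, KOhfd54 and KOhfd56 stood at 201, 240 and 221 FPKM, and the other 6 at 106 FPKM or less. The log2 fold change of 0.56 (SE 0.22, 95% interval 0.10 to 1.02) did not pass after adjustment (limma adjusted p = 0.145). Within title style A, which holds none of those 3 livers, the genotypes did not overlap and the difference was 0.27 (exact permutation p = 0.0286), and within style B it was 0.79 with overlap (exact permutation p = 0.0952). The *Got1* to *Got2* ratio was 0.207 to 0.450 in WT livers (median 0.256) and 0.262 to 0.921 in KO livers (median 0.317). On the log2 scale the genotypes differed by 0.56 (two-sided exact permutation p = 0.0585, also after adjustment over 2 ratios). With permutation kept within title style, the difference was 0.53 (exact permutation p = 0.0214).

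*Tat* (chr8:109990436-109999804, plus strand) varied most between livers, with a highest value 5.07 times the lowest. It measured 243 to 930 FPKM in WT livers with a median of 338. In KO livers it measured 328 to 1232 FPKM with a median of 425. The values fell into separate ranges, since KOhfd53, KOhfd54, KOhfd56 and the WT liver WThfd134 had 1003, 1041, 1232 and 930 FPKM, and no other liver exceeded 525 FPKM. The log2 fold change was 0.54 (SE 0.30, 95% interval -0.09 to 1.16, limma adjusted p = 0.302), with 0.34 in title style A (exact permutation p = 0.171) and 0.69 in style B (exact permutation p = 0.222).

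*Tdo2* (chr3:81958414-81975728, minus strand) measured 747 to 1241 FPKM in WT livers with a median of 827, and 649 to 1432 FPKM in KO livers with a median of 950. Both the lowest and the highest liver were *Gpr180*KO, KOhfd51 and KOhfd53. Its log2 fold change was 0.17 (SE 0.15, 95% interval -0.14 to 0.47, limma adjusted p = 0.508). The estimate was 0.15 in title style A (exact permutation p = 0.2) and 0.18 in style B (exact permutation p = 0.492). The interval of *Tat* holds differences as large as those measured for *Sds* and *Hal*, so that these 18 livers were too variable in *Tat* to show such a change.

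A test of whether the genotype difference depended on title style found 0 of 10835 genes past an adjusted p of 0.05 with limma's interaction term, 833 at an unadjusted p under 0.05, and none of the 9 members among those. The estimate in style B was further from 0 than that in style A for every member but *Got2*.

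The members did not vary independently from liver to liver. KOhfd53, KOhfd54 and KOhfd56, all of title style B, had the highest levels of *Got1*, *Tat*, *Tdo2* and *Hal* among the 18 livers. WThfd134 was the WT liver with the highest *Tat*, *Tdo2*, *Sds* and *Hal*, at 930, 1241, 105 and 98.1 FPKM, and with the lowest *Got2*, *Gpt* and *Gpt2*, at 245, 85.4 and 137 FPKM. KOhfd51 differed from its group in another way, with the highest *Gpt* (168 FPKM), high *Sds* (163 FPKM) and the lowest *Tdo2* (649 FPKM). Because *Tat* and *Got1* fall into separate ranges of livers, no single correlation of theirs with another member is printed. The count of correlated pairs below does include them.

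**Figure D4:**
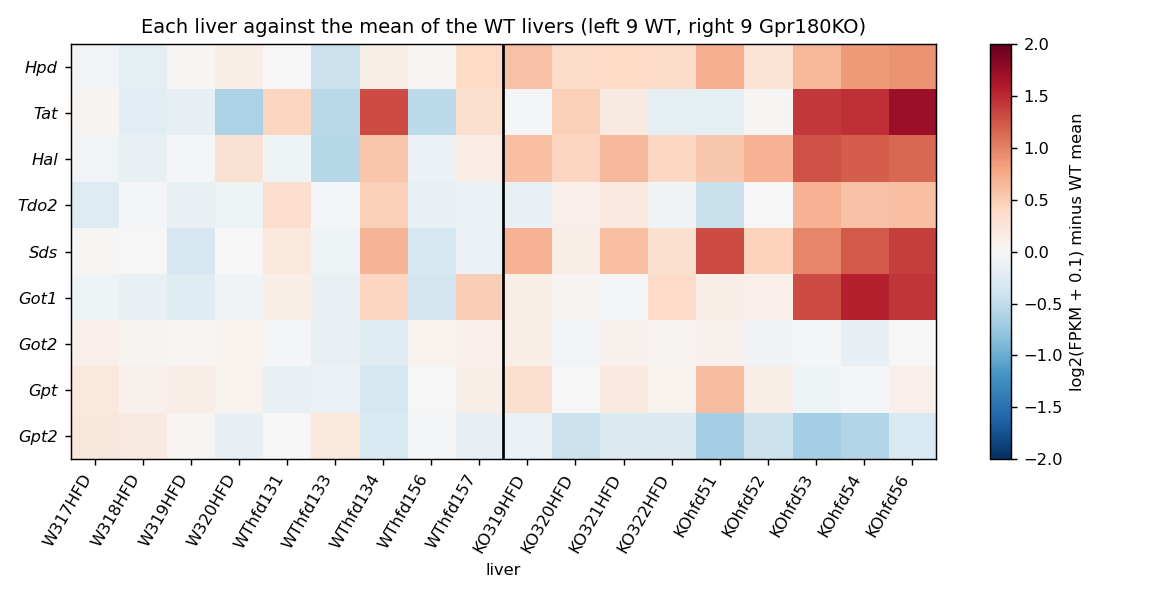
Level of each enzyme gene (rows) in each liver (columns) as log2(FPKM + 0.1) minus the mean of the WT livers, with red higher and blue lower and the black line between 9 WT and 9 *Gpr180*KO livers. *Hal* and *Hpd* are red across the KO livers and *Gpt2* is blue, whereas *Tat* and *Got1* are deep red in KOhfd53, KOhfd54 and KOhfd56, with *Tat* also high in WThfd134.

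Of the 36 pairs of members, 21 were correlated over the 18 livers at an adjusted p under 0.05, 14 of them positively. This count includes pairs with *Tat* or *Got1*, and it also takes in the difference between the genotypes. The points share library and scaling, so these are descriptions of joint variation. *Hal* and *Hpd* had the highest correlation, with a Pearson r of 0.90 and a Spearman rho of 0.86 (permutation p = 1e-05 for each, the smallest that 100000 resamples allow, and 0.00012 adjusted for r). The r was 0.87 without the 2 livers farthest from the median of *Hal*, 0.75 within WT, 0.71 within KO, and 0.95 and 0.88 within title styles A and B. *Gpt2* and *Hal* ran in opposite directions, with an r of -0.84 and a rho of -0.85 (permutation p = 3e-05 and 2e-05, adjusted p = 0.000154 and 0.00036), and -0.81 without the 2 farthest livers. Within WT that r was -0.85 and within KO -0.40. *Got2* and *Gpt*, a mitochondrial aspartate and a cytosolic alanine aminotransferase, had an r of 0.75 and a rho of 0.75 (permutation p = 0.00031 and 0.00052, adjusted p = 0.00093 and 0.00267), and 0.64 without the 2 farthest livers. Within WT and KO that r was 0.92 and 0.72, and with median-of-ratios scaling 0.92 over all livers. With the mean of each genotype and title style taken off, r was 0.67 for *Hal* and *Hpd*. It was -0.51 for *Gpt2* and *Hal* and 0.80 for *Got2* and *Gpt*.

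For each member the genes with the most similar levels over the 18 livers were found by Pearson r on log2(FPKM + 0.1), which also takes in the difference between the genotypes. *Got1* was most like *Hgd* (r = 0.95, and 0.93 within WT and 0.94 within KO livers), the homogentisate dioxygenase of the tyrosine pathway, and *Acmsd* (r = 0.91) of the kynurenine pathway was also near it. *Tat* was most like *Acmsd* (r = 0.94, and 0.91 within WT and 0.96 within KO livers), *Cth* (r = 0.94), the cystathionine lyase of cysteine synthesis, and *Klf15* (r = 0.94), a transcription factor known to raise amino acid catabolism genes. These r of *Got1* and *Tat*, also those within KO livers, span the separate ranges described above. KOhfd53, KOhfd54 and KOhfd56 are far above the rest in both genes, and WThfd134 is in *Tat*. How far r depends on those livers was not computed. *Sds* was most like its paralog *Sdsl* (r = 0.89), *Amdhd1* (r = 0.88) of histidine breakdown, and *Agxt* (r = 0.88), the alanine-glyoxylate aminotransferase. Within WT livers those values were 0.90, 0.62 and 0.36, and within KO livers 0.95, 0.84 and 0.88, and *Amdhd1* and *Agxt* were themselves higher in *Gpr180*KO. *Hal* was closest to *Cyp4f15* (r = 0.95), the liver glutaminase *Gls2* (r = 0.93) and *Agxt* (r = 0.93), and *Hpd* to *Cyp4f15* (r = 0.95), *Agxt* (r = 0.94) and *Asl* (r = 0.92), the argininosuccinate lyase of the urea cycle. *Tdo2* lay closest to *Crp*, *Acmsd* and *C9* (r = 0.92, 0.91 and 0.90), *Gpt* to *Acy1*, an aminoacylase, *2610528J11Rik* and *Selenbp1* (r = 0.93, 0.92 and 0.92), and *Got2* to *Car5a*, a mitochondrial carbonic anhydrase, *Pgm2* and *Acy1* (r = 0.87, 0.86 and 0.86). The genes nearest to *Gpt2* were *Slc22a3* (r = 0.96), *Large* (r = 0.94) and *Morc4* (r = 0.94). They were also lower in *Gpr180*KO (log2 fold changes -0.82, -0.73 and -0.91), so that r over all livers takes in the genotype difference. Within WT livers r was 0.93, 0.91 and 0.86, and within KO livers 0.92, 0.79 and 0.93. These genes averaged only 1.45, 1.81 and 1.06 FPKM, close to the minimum of 1 FPKM for testing.

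The wider pathways were read from 10 lists of amino acid metabolism genes, which hold 75 genes other than the members, 71 of them tested. In *Gpr180*KO 5 of the 71 were higher and 0 lower (limma, Benjamini-Hochberg adjusted p, with 22 at an unadjusted p under 0.05), which is 7.04% called higher against the 0.452% of all genes. Their median log2 fold change was 0.13 with 54 of 71 above 0, against -0.13 over all genes. With median-of-ratios scaling 10 were higher and 0 lower, beside 146 higher and 145 lower among all 10824 genes tested with that scaling.

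Among the other aminotransferases 2 of 10 tested were higher. *Agxt*, which detoxifies glyoxylate, rose from 151 ± 25.8 to 256 ± 77.0 FPKM, or by 0.72 on the log2 scale (limma adjusted p = 0.0169), and *Ccbl1*, a kynurenine aminotransferase, from 37.8 ± 9.28 to 50.2 ± 5.61 FPKM (0.43, limma adjusted p = 0.0358). In histidine degradation, downstream of *Hal*, 2 of 3 genes were higher. *Amdhd1*, the imidazolonepropionase, rose from 64.1 ± 9.62 to 86.7 ± 18.9 FPKM (0.42, limma adjusted p = 0.0437), and *Ftcd*, which passes the formimino group to folate, from 128 ± 16.7 to 156 ± 9.02 FPKM (0.29, limma adjusted p = 0.0392). The third, the urocanase *Uroc1*, measured 127 ± 15.6 and 137 ± 23.2 FPKM and did not pass. In branched-chain amino acid breakdown 1 of 20 genes was higher, the isovaleryl-CoA dehydrogenase *Ivd*, from 74.3 ± 14.0 to 96.9 ± 5.73 FPKM (0.41, limma adjusted p = 0.0302).

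The remaining breakdown lists had no gene past the threshold with FPKM as deposited, although with median-of-ratios scaling the lysine list and the serine, glycine and threonine list each had 1 gene called higher. With title style as a block those lists and the tryptophan list had 1 gene higher each, and the shuttle list 1 lower. Around *Tat* and *Hpd*, 0 of 6 genes of phenylalanine and tyrosine degradation passed. Around *Tdo2*, 0 of 8 genes of the tryptophan and kynurenine pathway passed, with *Afmid*, the kynurenine formamidase, closest (log2 fold change 0.47, limma adjusted p = 0.116). Serine, glycine and threonine breakdown had 0 of 11, with *Sardh*, the sarcosine dehydrogenase, closest (0.27, limma adjusted p = 0.0916). Lysine degradation had 0 of 5 (*Aldh7a1*, 0.20), proline and ornithine breakdown 0 of 4 (*Aldh4a1*, 0.11) and serine synthesis 0 of 1 tested (*Psph*, -0.29). The glutamate and malate-aspartate shuttle list, which holds the partners of *Got1* and *Got2*, had 0 of 7. Closest there was *Slc25a12*, an aspartate-glutamate carrier (-0.27, limma adjusted p = 0.0565), at means of 5.27 FPKM in WT and 4.35 FPKM in KO livers. *Slc25a13*, another such carrier, was at 80.0 and 85.5 FPKM (0.09, limma adjusted p = 0.444). Hepatocyte amino acid transporters had 0 of 9, with *Slc7a8* closest (-0.45, limma adjusted p = 0.116).

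**Figure D5:**
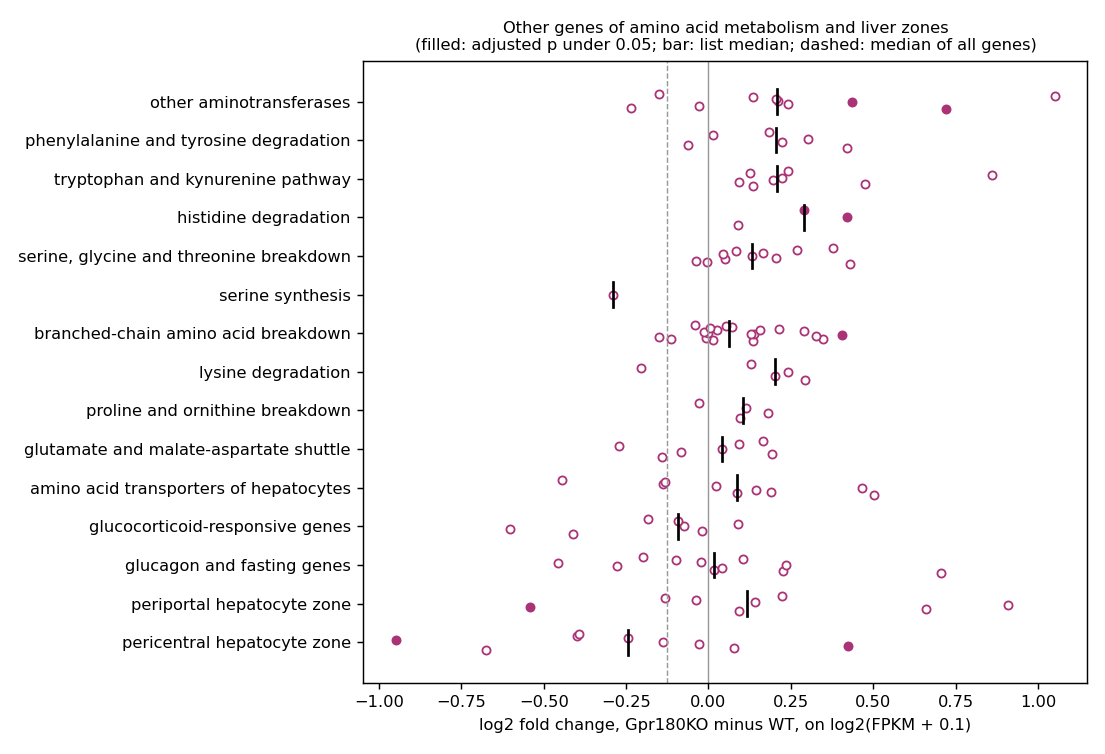
Log2 fold change, *Gpr180*KO minus WT on the log2(FPKM + 0.1) scale, of every tested gene in 15 lists around the members, in 1 row per list. Filled points passed an adjusted p of 0.05, the black bar is the list median and the dashed line the median of all genes at -0.13. Filled points right of 0 belong to the aminotransferase, histidine, branched-chain and pericentral lists, and filled points left of 0 (*Hsd17b13* and *Rhbg*) to the zone lists.

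Genes known to answer to the hormones that act on *Tat*, *Tdo2* and *Sds* did not pass the test with FPKM as deposited. Of 7 glucocorticoid-responsive genes 0 passed, with a median of -0.09 and *Fkbp5* closest (log2 fold change -0.41, limma adjusted p = 0.0876). Of 11 glucagon and fasting genes 0 passed, with a median of 0.02 and *Pck1*, which encodes the key enzyme of gluconeogenesis, closest (0.71, limma adjusted p = 0.0613), at 470 ± 201 FPKM in WT and 735 ± 202 FPKM in KO livers. *Pck1* passed with median-of-ratios scaling (0.86, limma adjusted p = 0.0472), and 1 gene of the list was higher with title style as a block. Liver by liver, *Pck1* was at 841 FPKM in WThfd134 and at 874, 1079 and 980 FPKM in KOhfd53, KOhfd54 and KOhfd56, and no other liver exceeded 744 FPKM. *Tsc22d3*, a glucocorticoid target, was at 49.3 FPKM in WThfd134 and at 51.8, 39.0 and 31.7 FPKM in those KO livers, while WThfd131 with 36.5 FPKM was the only other liver above 30 FPKM. The other genes of these lists read by liver did not set apart all of those livers. *Fkbp5* and *Per1* were highest in WThfd131, at 10.1 and 4.86 FPKM. *G6pc* was at 289 FPKM in WThfd131, 236 FPKM in WThfd134 and 221 FPKM in KOhfd56. *Sgk1* was highest in KOhfd53 (20.3 FPKM), but was at 9.87 FPKM in KOhfd54 and 10.6 FPKM in KO320HFD. *Igfbp1* was at 40.6 FPKM in KOhfd56 and 83.2 FPKM in W320HFD. *Ppargc1a* was at 1.82 FPKM in KOhfd53 and 2.68 FPKM in WThfd157. Whether feeding or hormones had a part in the *Tat* and *Got1* values of WThfd134, KOhfd53, KOhfd54 and KOhfd56 was not tested.

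Several members are known to be enriched near the portal vein, and zone markers moved in both directions. Of 8 periportal genes 1 was lower, *Hsd17b13* (log2 fold change -0.54, limma adjusted p = 0.0154), and 0 higher, with *Gls2* at 0.66 (limma adjusted p = 0.0527). Of 9 pericentral genes 1 was higher, *Cyp1a2* (0.42, limma adjusted p = 0.0404), and 1 lower, the ammonium transporter *Rhbg* (-0.95, limma adjusted p = 0.0472). With median-of-ratios scaling both lower calls were lost and *Gls2* was called higher (0.81, limma adjusted p = 0.0436), and with title style as a block 1 periportal gene was higher. The list medians were 0.12 for the periportal and -0.24 for the pericentral genes.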

How the data were processed

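Per the labels and the study's methods, poly(A) RNA was prepared with the TruSeq mRNA kit, single reads were sequenced, and the authors mapped them with TopHat to GRCm38 (mm10). The deposited tables hold FPKM with an interval and a status. The study's methods take FPKM from the output of Illumina's TopHat Alignment application, and the annotation is not given in the sources used here. Entries with the same symbol were summed, and 24 genes with 190 failed values were left out. No counts were used here, so depth is relative, from the value of 1 read in weakly expressed genes. The deposited interval of a member spanned at most 9.96% of its midpoint to either side, and FPKM lay above it in nearly all livers, for which no reason was tested.

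The genotypes were compared by limma (version 3.58.1, R 4.3.3), with lmFit and a trended eBayes applied to log2(FPKM + 0.1), a scale that understates changes of weakly expressed genes. The fit took the 10835 genes whose FPKM averaged 1 or more, and p-values were adjusted together by Benjamini-Hochberg to a threshold of 0.05. Single genes and ratios were also compared with two-sided exact permutation tests over all splits of the 18 livers (Python 3.11.15, scipy 1.17.1). The limma step was tested on simulated data.

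Groups came from the genotype labels. The numbers in the titles were read as mouse names and not as pairs. Members and lists were chosen with earlier results of these data known. Named genes were all members, up to 3 called genes per list or else the one with the lowest p, and the 3 genes most like each member, of which 1 gene is not reported here. *Uroc1*, *Tsc22d3*, *Sgk1*, *Per1*, *G6pc*, *Igfbp1*, *Ppargc1a*, *Slc25a13*, *Plbd2* and marker genes were added after their values were seen. Gene positions are those of the deposited tables, promoter windows are from RefSeq (GRCm38.p6) and overlaps from GENCODE. Alternatives were other pseudocounts, minimums and scalings, title style as a block or alone, variance settings, and each liver left out.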

Additional observations from a re-analysis of the deposited data

Results flagged for a closer look

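The *Gpt* to *Gpt2* ratio of the *Gpr180*KO liver KOhfd51, 1.596, lay far from those of the other 8 KO livers, which were between 0.828 and 0.985. The gap to its nearest neighbour was 0.736 of the range of the group on the log2 scale, above Dixon's critical value of 0.493 for 9 livers. In all 22 groups were examined this way, of which chance alone flags about 1 in 20, and this was the only one past its limit. KOhfd51 combined the highest *Gpt* level of the 18 livers (168 FPKM) with a low *Gpt2* level (105 FPKM), and its FPKM values summed to 718746, the highest of all libraries. Without it, the log2 difference of the ratio between the genotypes was 0.48.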

How the results depend on the processing

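*Sds*, *Hal* and *Hpd* stayed above 0 and *Gpt2* below 0 in all 14 alternatives, and each of these 4 calls held when any 1 of the 18 livers was left out. *Hal* and *Hpd* were called in 13 of 14 alternatives, *Sds* in 12 and *Gpt2* in 11. Members called lower dropped to 0 with median-of-ratios scaling and with title style A or title style B alone, and members called higher dropped to 0 with style B alone and to 2 with style A alone, with fewer livers in each fit. *Got1* passed in 1 of 14 alternatives, median-of-ratios scaling with title style as a block (limma adjusted p = 0.0401). The estimate of *Got2* changed sign with TPM scaling (-0.036), title style A alone (-0.018) and weights per library (-0.018), and ranged from -0.030 to 0.022 with 1 liver left out. Over all genes, 513 calls became 238 with a minimum of 5 FPKM, 291 with median-of-ratios scaling, 279 with 75th percentile scaling, 1153 with title style as a block, 1331 with weights per library and 0 with style B alone, and 132 (without WThfd133) to 922 (without WThfd157) with 1 liver left out; the cause was not tested. The log2 difference of the *Got1* to *Got2* ratio passed with title style A alone (0.28) and with permutation within title style (0.53), and ranged from 0.41 to 0.64 with 1 liver left out, passing without WThfd134, KO319HFD, KO320HFD, KO321HFD or KOhfd51. That of *Gpt* to *Gpt2* ranged from 0.48 to 0.61 and passed throughout. Correlations of *Got2* or *Gpt* with the other members moved with the scaling between libraries. No paired analysis was made, since W319HFD and KO319HFD, and W320HFD and KO320HFD, share a number in their titles but nothing states that they are related, and no other livers share one. Depth is known only in relative terms, so no limit for single values could be set from counts.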
